A study of Mus musculus with 9 samples.

Results

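A set of 34 genes that are widely used as markers of astrocytes was followed in RNA sequencing of the medial prefrontal cortex of DBA2/J mice. The genes were listed by symbol, by a rule that used no measured value, but with earlier results of these data known. All 34 were found among the 36172 features of the count table, and all 34 passed the filter on low counts that left 15144 genes for testing. The 9 samples formed 3 groups of 3. NS mice were not stressed and received saline. SA:ANH-vehicle mice were DBA2/J mice that went through 5 days of social defeat, in which a mouse meets an aggressor repeatedly, and were of a type named SA:ANH in the labels. Their treatment label names saline where their title names vehicle. SA:ANH-KDM5Ci mice had the same stress and type and received an inhibitor of KDM5C, an enzyme that removes methyl groups from lysine 4 of histone H3. The meaning of SA:ANH, the compound, its dose and the ages are not stated in the sources used here. The labels do not state whether each sample of a group is a mouse of its own, and p-values therefore describe the spread among these samples only, part of which may be technical.

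Astrocytes are the glial cells that surround synapses and cover blood vessels with their endfeet. They take up glutamate after its release and return it to neurons as glutamine, buffer potassium and water, store the brain's glycogen, bind zinc and copper through metallothioneins, and secrete lipoproteins and other factors. Under injury or inflammation they enter reactive states, of which raised Gfap and Vim are the classical signs. In bulk tissue, a lower level of these genes can come from fewer astrocytes or from less RNA per astrocyte, and these cannot be told apart.

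The libraries held from 29845097 to 42196472 counts. The members were well covered: the least abundant, Agt, lay at 2.41 CPM (edgeR's depth-scaled counts, on TMM-scaled library sizes) or more in every library, against 0.101 CPM for 3 counts in the shallowest. Marker levels of other cell types differed between libraries, and whether cell numbers or RNA per cell differed was not tested. Markers of oligodendrocytes summed to 1543 to 3133 CPM in NS, 2007 to 3154 in SA:ANH-vehicle and 2813 to 3669 in SA:ANH-KDM5Ci, and those of striatal neurons to 244 to 399, 266 to 345 and 319 to 748 CPM. Replicate 1 of each group had the highest oligodendrocyte score of its group, and of the 34 members, 9 had their highest level of all 9 libraries in NS replicate 1, 6 in SA:ANH-vehicle replicate 1 and 10 in SA:ANH-KDM5Ci replicate 1. Markers of meninges and fibroblasts summed to 115 to 190, 134 to 214 and 92.1 to 102 CPM, and all 11 of them were lower in every SA:ANH-KDM5Ci library than in any SA:ANH-vehicle library, which was so for 10.9% of all genes. Of these 11, 3 fell in the test against SA:ANH-vehicle, where 1.62% of all genes fell. Markers of blood cells separated NS from both stressed groups, with sums of 285 to 325 CPM in NS, 495 to 561 in SA:ANH-vehicle and 448 to 590 in SA:ANH-KDM5Ci. Of the 8 tested, 2 rose in SA:ANH-vehicle against NS, as many as among all genes, and 5 rose in SA:ANH-KDM5Ci against NS, where 1.86% of all genes rose. The part of tissue makeup in the values below was not tested, beyond the 2 fits that took the striatal or the meningeal score as a covariate. The meningeal score of every SA:ANH-KDM5Ci library (-0.52 to -0.47) lay below those of NS (-0.20 to 0.43) and SA:ANH-vehicle (0.00 to 0.68). The fit with that score can therefore not tell it from the group difference, and a call lost there does not show a part of tissue makeup.

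**Figure D1:**
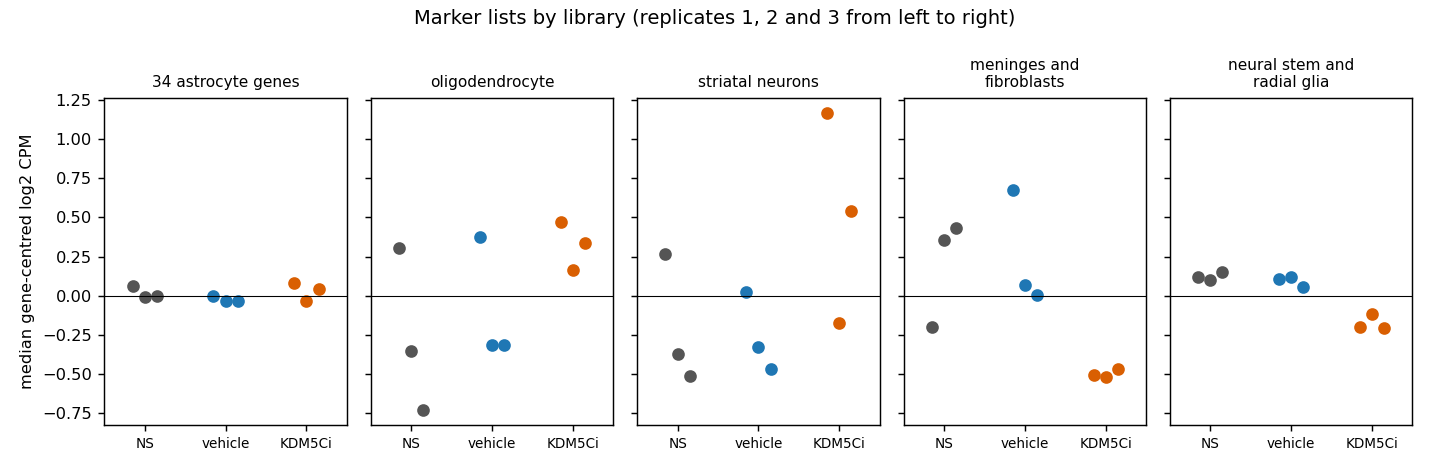
Score of 5 marker lists (y axis; median over a list's genes of log2 CPM minus the gene's mean over all libraries) in each library, by group, with replicates 1, 2 and 3 from left to right. The 34 astrocyte genes lie between -0.04 and 0.08, while the striatal score reaches 1.17 in SA:ANH-KDM5Ci replicate 1.

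Most of the 34 astrocyte genes changed little between groups. The log2 fold change was within ±0.2 for 29 in SA:ANH-vehicle against NS, 32 in SA:ANH-KDM5Ci against SA:ANH-vehicle and 28 in SA:ANH-KDM5Ci against NS. In SA:ANH-vehicle against NS, which compares stress, type and any difference in vehicle together, none of the 34 passed at an adjusted p of 0.05 (edgeR quasi-likelihood F test, Benjamini-Hochberg over all genes tested). DESeq2 and limma-voom also called 0. The background was 0.0132% of all genes called, or 2 of 15144. At an unadjusted p under 0.05 there were 7 members, a larger share of the 34 than the 8.21% of all genes. These were Slc7a10, Mt1, Vim, Fabp7, Ttyh1, Cbs and Agt, and the smallest adjusted p among them was 0.355. The members' median log2 fold change was -0.03, against 0.00 over all genes, with 13 above 0 and 21 below.

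In SA:ANH-KDM5Ci against SA:ANH-vehicle, which sets the inhibitor beside vehicle within the stressed type, 1 member fell and 0 rose. The member that fell was Ppp1r3c, a glycogen-targeting subunit of protein phosphatase 1. Of all genes, 2.51% were called, 0.891% upward and 1.62% downward, so 1 of 34 is close to the background. An unadjusted p under 0.05 was reached by 4 members (Glul, S100b, Ppp1r3c and Fgfr3), against 14.2% of all genes. The median was 0.03, against 0.00 for all genes, with 25 members above 0 and 9 below. Scaling by total count alone moved the median of all genes to -0.02 and that of the members to 0.01, with 20 members above 0. With the striatal marker score as a covariate, 14 members were above 0 and their median was -0.03, against 0.00 for all genes.

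In SA:ANH-KDM5Ci against NS, 1 member rose, Mt1, a metallothionein, and 0 fell. The background was 3.97% of all genes called, 1.86% upward and 2.11% downward. An unadjusted p under 0.05 was reached by 11 members, a larger share of the 34 than the 18.5% of all genes. The members' median was -0.00, with 16 members above 0 and 18 below. The 3 comparisons share libraries, so their values are set side by side here and are not independent.

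**Figure D2:**
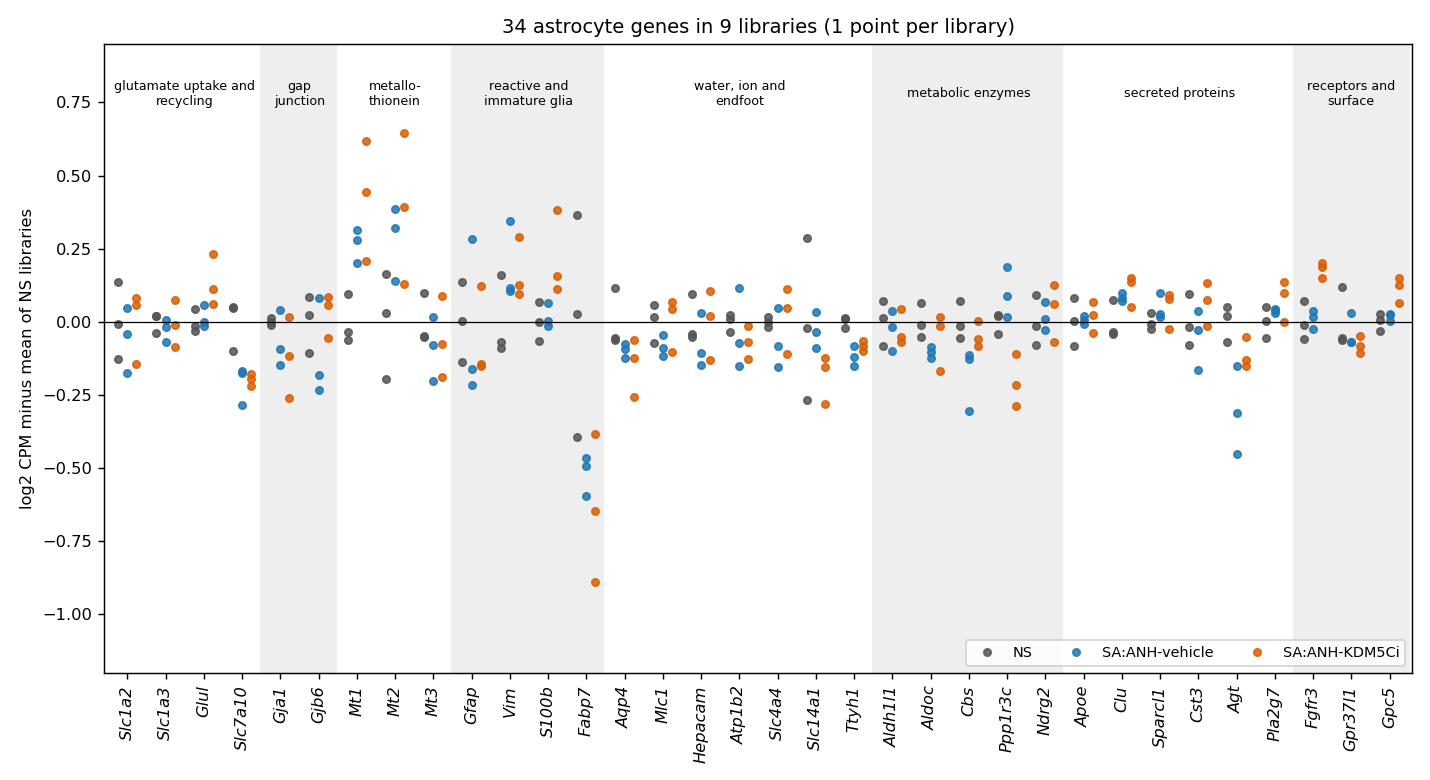
Level of the 34 astrocyte genes (x axis, grouped by role) in each of 9 libraries, as log2 CPM minus the mean of the NS libraries (y axis); points are libraries, coloured by group. Most points lie near 0; Fabp7 is below 0 in all stressed libraries, and Mt1 and Mt2 are above 0 in all of them.

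The precision was enough to bound most changes. With a 95% interval from the standard error and the 6 residual degrees of freedom, the log2 fold change lay wholly within ±0.5 (1.41-fold) for 31 of 34 members in SA:ANH-vehicle against NS, 33 in SA:ANH-KDM5Ci against SA:ANH-vehicle and 30 in SA:ANH-KDM5Ci against NS. The members whose interval reached beyond that bound were Mt2, Fabp7 and Agt in the first, Fabp7 in the second, and Mt1, Mt2, Fabp7 and Slc14a1 in the third. The median distance from the estimate to its bound was 0.15. Within groups, the members' median coefficient of variation was 5.01% in NS, 4.42% in SA:ANH-vehicle and 5.87% in SA:ANH-KDM5Ci. The most variable member was Fabp7 in NS (25.8%), Gfap in SA:ANH-vehicle (19.96%) and Mt2 in SA:ANH-KDM5Ci (17.8%).

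**Figure D3:**
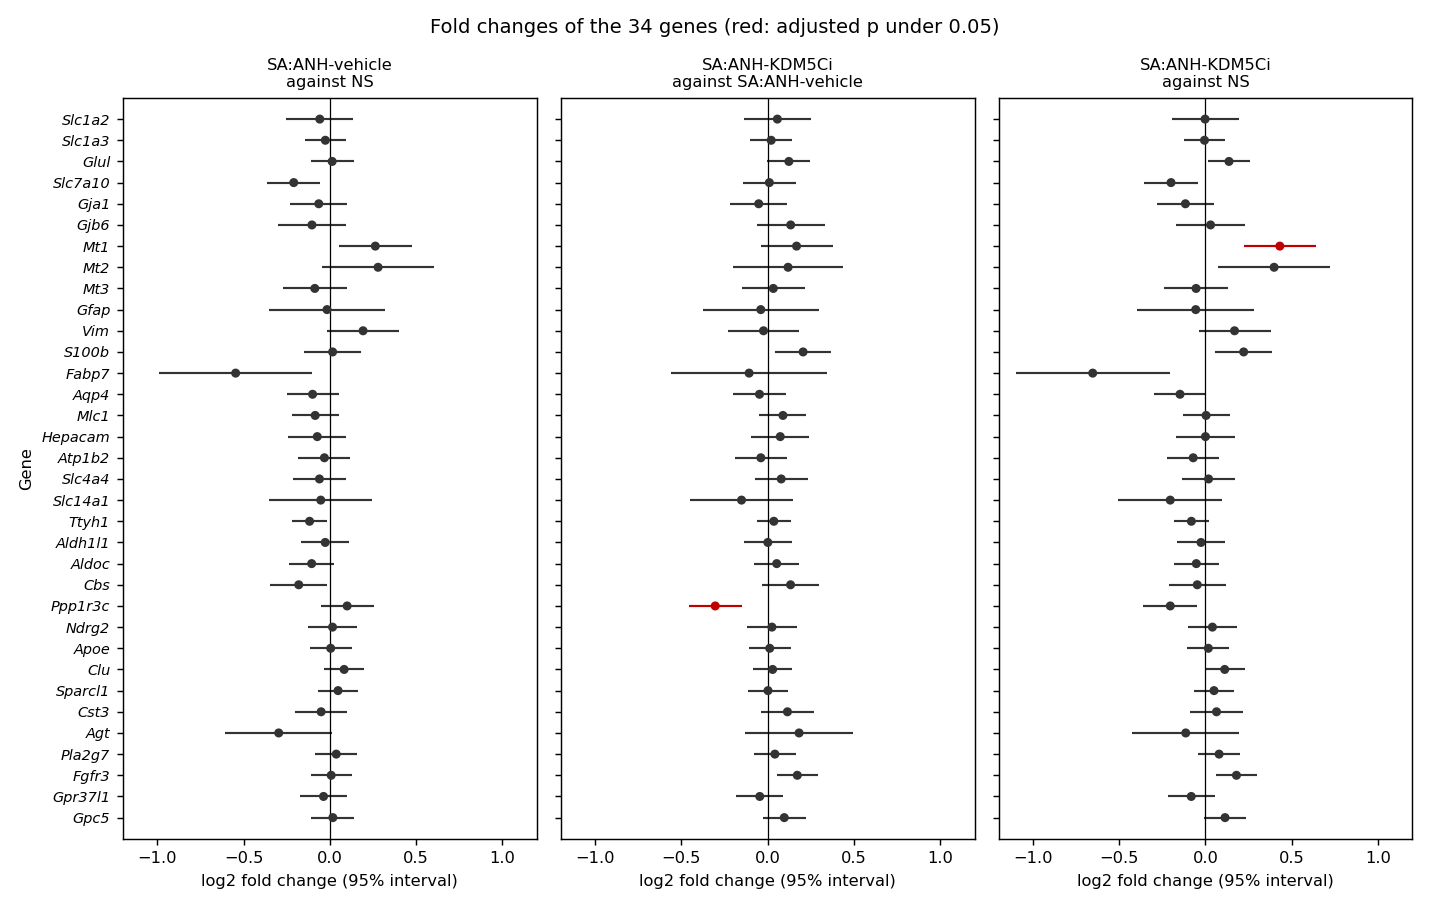
Log2 fold change (x axis) of each of the 34 genes in the 3 comparisons, with bars for the 95% interval. Red marks an adjusted p under 0.05: Ppp1r3c in SA:ANH-KDM5Ci against SA:ANH-vehicle and Mt1 in SA:ANH-KDM5Ci against NS. Fabp7 has the widest intervals.

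None of the 4 genes of glutamate uptake and recycling passed in any comparison. Slc1a2 (GLT-1), the main glutamate transporter of the forebrain, stood at 3023, 3635 and 3285 CPM in NS, 3412, 3209 and 2925 in SA:ANH-vehicle, and 3498, 3436 and 2993 in SA:ANH-KDM5Ci. The groups overlapped throughout, and the log2 fold change was -0.06 in SA:ANH-vehicle against NS (95% interval -0.25 to 0.14) and 0.06 in SA:ANH-KDM5Ci against SA:ANH-vehicle (-0.14 to 0.25). Slc1a3 (GLAST), the other astrocytic glutamate transporter, was at 476 ± 11.1, 468 ± 12.6 and 474 ± 26.4 CPM (SD, n = 3) in the 3 groups in that order. Its log2 fold change with the inhibitor was bounded between -0.10 and 0.14.

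Glul, glutamine synthetase, was at 1014, 974 and 962 CPM in NS, 1023, 981 and 972 in SA:ANH-vehicle, and 1153, 1025 and 1063 in SA:ANH-KDM5Ci. Every SA:ANH-KDM5Ci library was above every other library. The difference did not pass: it was 0.12 (SE 0.05, adjusted p = 0.283) against SA:ANH-vehicle and 0.14 (adjusted p = 0.167) against NS. Slc7a10, an exchanger of D-serine and other small neutral amino acids, was at 27.4, 27.3 and 24.7 CPM in NS, 23.6, 21.7 and 23.4 in SA:ANH-vehicle, and 22.7, 23.1 and 23.4 in SA:ANH-KDM5Ci. All NS libraries were above all stressed ones, by a log2 difference of -0.21 in SA:ANH-vehicle (SE 0.06, adjusted p = 0.355) and -0.20 in SA:ANH-KDM5Ci (adjusted p = 0.105), neither of which passed. Groups that do not overlap in either direction were found for 15.1% of all genes in SA:ANH-vehicle against NS, 18.9% in SA:ANH-KDM5Ci against SA:ANH-vehicle and 23.5% in SA:ANH-KDM5Ci against NS. Among the 34 members, 8, 7 and 8 were apart. Against NS, 1 of these was higher in SA:ANH-vehicle and 7 were lower, against 8.29% and 6.81% of all genes. The 7 lower ones are a larger share of the 34 than the background. In SA:ANH-KDM5Ci, 5 were higher and 2 lower than in SA:ANH-vehicle (background 7.92% and 10.9%), and 5 higher and 3 lower than in NS (11.5% and 12%).

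The 2 gap junction genes did not pass in any comparison. Gja1 (connexin 43) was at 194, 193 and 196 CPM in NS, 200, 182 and 175 in SA:ANH-vehicle, and 197, 179 and 162 in SA:ANH-KDM5Ci. The groups overlapped, with a log2 difference of -0.05 between the stressed groups (95% interval -0.22 to 0.11, adjusted p = 0.793). Gjb6 (connexin 30), which joins astrocytes together with connexin 43, was at 43.0 ± 2.91, 39.9 ± 4.76 and 43.8 ± 2.24 CPM in NS, SA:ANH-vehicle and SA:ANH-KDM5Ci. Its difference was -0.10 (adjusted p = 0.805) in SA:ANH-vehicle against NS and 0.13 (adjusted p = 0.522) in SA:ANH-KDM5Ci against SA:ANH-vehicle.

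Of the 3 metallothioneins, Mt1 and Mt2 differed most from NS. Mt1 (NCBI gene 17748, chromosome 8, 94178883 to 94180327, GRCm38.p6) and Mt2 (NCBI gene 17750, 94172618 to 94173567) are neighbours that respond to zinc and to glucocorticoids. Mt3 (NCBI gene 17751, 94152607 to 94154148) is the brain form and is known to respond little to either. The binding site of the metal-responsive factor MTF1 has the core TGCNCNC. The core was searched on both strands of the 250 bases before each start site in the RefSeq promoter table (GRCm38.p6, plus strand for all 3 genes), and capitals mark it below. The Mt2 (chr8:94172368-94172617) and Mt3 (chr8:94152357-94152606) windows are shown whole to set the zinc-responsive gene beside the brain form. Other Mt1 transcripts begin inside the Mt1 window, so only the 30 bases around its match are shown (chr8:94179052-94179081).
Mt1: gggcggtcccgctgTGCACACtggcgctcc
Mt2: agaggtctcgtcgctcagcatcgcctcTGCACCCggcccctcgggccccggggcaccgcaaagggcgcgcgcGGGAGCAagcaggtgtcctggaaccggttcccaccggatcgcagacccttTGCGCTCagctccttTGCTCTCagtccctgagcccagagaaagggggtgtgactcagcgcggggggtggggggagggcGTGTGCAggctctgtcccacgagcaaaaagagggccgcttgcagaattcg
Mt3: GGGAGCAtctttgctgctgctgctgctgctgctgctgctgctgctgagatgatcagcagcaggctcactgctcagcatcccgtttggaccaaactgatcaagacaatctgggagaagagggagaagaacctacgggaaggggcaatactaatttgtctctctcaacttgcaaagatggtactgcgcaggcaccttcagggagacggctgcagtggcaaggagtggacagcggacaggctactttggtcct
The Mt2 window held 5 matches, and the Mt1 and Mt3 windows 1 each. The core is short: 44.4% of 32851 promoter windows held at least 1 match and 4.65% held 3 or more. The hexamer AGAACA, to which the glucocorticoid receptor binds, was searched in the same way. It was in 16.1% of all windows, in 6 of the 36 windows of members (16.7%) and in none of these 3. The 2 motifs were counted separately. Sequence outside these windows was not searched, so the lack of a match says nothing about sites farther away. GENCODE lists further Mt1 start sites downstream of the window searched, and the Mt1 count of 1 holds only for this window: it can change with the start site used.

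Mt1 was at 98.7, 88.7 and 90.4 CPM in NS, 115, 106 and 112 in SA:ANH-vehicle, and 142, 107 and 126 in SA:ANH-KDM5Ci. All stressed libraries were above all NS libraries, while the stressed groups overlapped. Mt1 rose by a log2 fold change of 0.43 (SE 0.09, 95% interval 0.22 to 0.64, 1.35-fold, adjusted p = 0.0156) in SA:ANH-KDM5Ci against NS. The Mt1 difference was 0.26 (adjusted p = 0.415) in SA:ANH-vehicle against NS and 0.17 (adjusted p = 0.421) between the stressed groups. Blood markers were also above NS in both stressed groups, and their part in the Mt1 values was not tested. The Mt1 call was lost without NS replicate 2 (adjusted p = 0.0695), NS replicate 3 (0.0757), SA:ANH-KDM5Ci replicate 1 (0.0530) or SA:ANH-KDM5Ci replicate 3 (0.0641). It was also lost when the striatal or meningeal score was a covariate, at 0.24 (adjusted p = 0.104) and 0.40 (adjusted p = 0.296). The meningeal score did not overlap between SA:ANH-KDM5Ci and NS, so that fit cannot tell it from the group difference.

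Mt2 followed the same order at about the same size. It was at 53.6, 41.8 and 48.9 CPM in NS, 62.5, 52.8 and 59.8 in SA:ANH-vehicle, and 74.9, 52.3 and 62.9 in SA:ANH-KDM5Ci. The groups overlapped, and no difference passed: 0.28 (SE 0.13, adjusted p = 0.633) in SA:ANH-vehicle against NS and 0.40 (SE 0.13, adjusted p = 0.145) in SA:ANH-KDM5Ci against NS. The latter passed in DESeq2 (adjusted p = 0.0191) and without SA:ANH-KDM5Ci replicate 2 (0.52, adjusted p = 0.0337). Mt3, in contrast to these values, was at 180, 162 and 162 CPM in NS, 146, 159 and 170 in SA:ANH-vehicle, and 159, 147 and 178 in SA:ANH-KDM5Ci. Its log2 differences were -0.09 (adjusted p = 0.830) and -0.05 (adjusted p = 0.757) against NS. Mt1 and Mt2 have similar coding sequences, so the way the counting placed shared reads could move values between them.

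**Figure D4:**
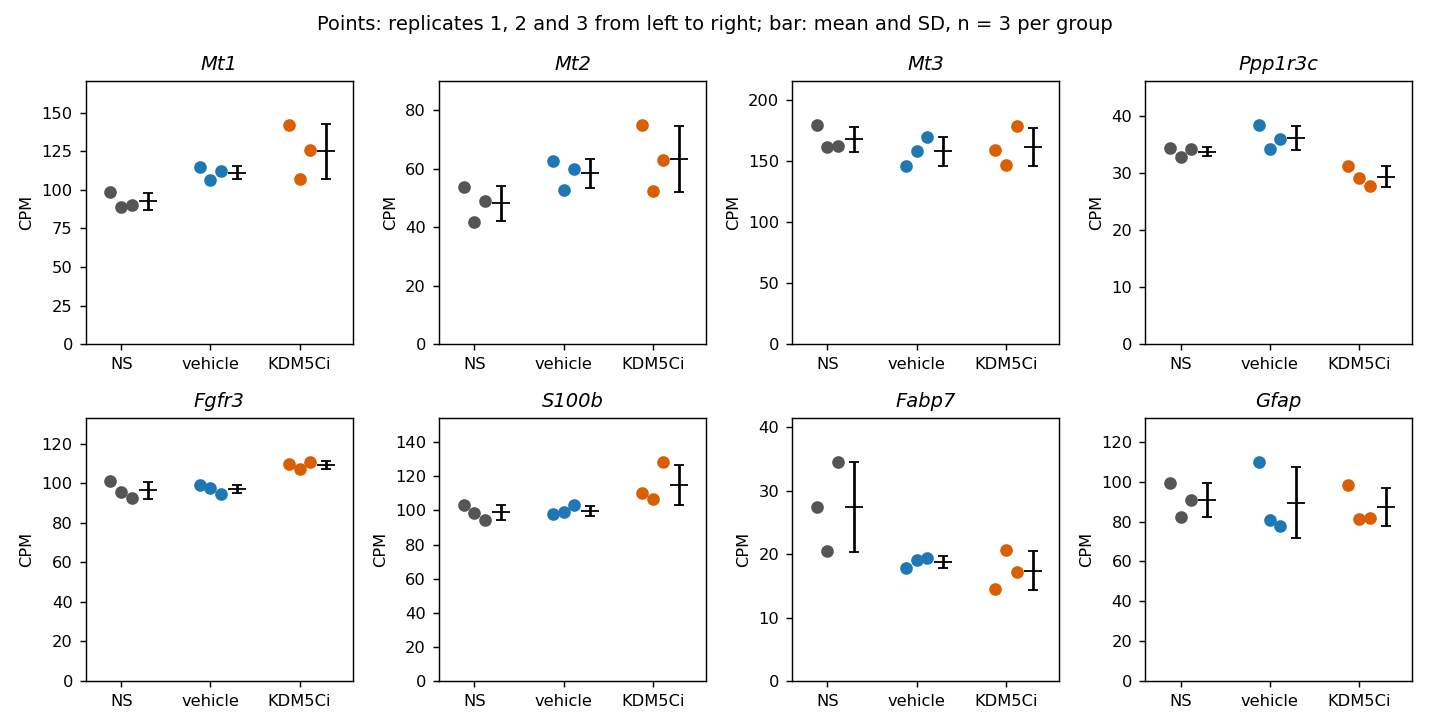
CPM (y axis, from 0) of 8 astrocyte genes in each library, by group; points are replicates 1, 2 and 3 from left to right, and bars are the group mean and SD (n = 3). The SA:ANH-KDM5Ci points for Ppp1r3c (27.7 to 31.3 CPM) lie below all others, and the NS points for Mt1 (88.7 to 98.7 CPM) lie below all stressed libraries.

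Among the members linked to reactive or immature glia, Gfap, Vim, S100b and Fabp7, none passed. Gfap, the intermediate filament protein used as the standard reactive marker, was at 99.3, 82.2 and 90.6 CPM in NS, 110, 80.8 and 77.8 in SA:ANH-vehicle, and 98.4, 81.4 and 81.9 in SA:ANH-KDM5Ci. Replicate 1 was the highest library in each group, and the groups overlapped. The interval of its log2 fold change ran from -0.35 to 0.32 in SA:ANH-vehicle against NS and from -0.38 to 0.30 with the inhibitor. Vim, the other intermediate filament gene of reactive astrocytes, which vessel and meningeal cells also express, was at 33.7 ± 3.31, 38.4 ± 3.69 and 37.8 ± 2.81 CPM in NS, SA:ANH-vehicle and SA:ANH-KDM5Ci. Its largest difference was 0.19 (adjusted p = 0.581), in SA:ANH-vehicle against NS.

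S100b, a calcium-binding protein of astrocytes that some oligodendrocytes also express, was at 103, 98.7 and 94.3 CPM in NS, 97.7, 98.9 and 103 in SA:ANH-vehicle, and 110, 107 and 129 in SA:ANH-KDM5Ci. All SA:ANH-KDM5Ci libraries were above all others, but the difference did not pass, at 0.21 (SE 0.07, adjusted p = 0.154) against SA:ANH-vehicle and 0.22 (adjusted p = 0.0913) against NS, where DESeq2 called it (adjusted p = 0.0451). Oligodendrocyte markers were above 0 for 10 of 10 genes in the same comparison with SA:ANH-vehicle, with a median of 0.43 and none called, and their part in the S100b values was not tested.

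Fabp7 (brain lipid-binding protein), a fatty acid carrier of radial glia and immature astrocytes, had the largest differences from NS of all members. It was at 27.4, 20.4 and 34.6 CPM in NS, 17.8, 19.1 and 19.4 in SA:ANH-vehicle, and 14.5, 20.6 and 17.1 in SA:ANH-KDM5Ci. All NS libraries were above all SA:ANH-vehicle libraries, while NS replicate 2 overlapped with SA:ANH-KDM5Ci. The log2 difference was -0.55 (SE 0.18, adjusted p = 0.455) in SA:ANH-vehicle and -0.65 (95% interval -1.10 to -0.21, adjusted p = 0.0924) in SA:ANH-KDM5Ci against NS, and neither passed. The second passed in DESeq2 (adjusted p = 0.00153), in edgeR without robust moderation (adjusted p = 0.0456) and without NS replicate 2 (-0.83, adjusted p = 0.00948).

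The 7 genes of water, ion and endfoot transport were all slightly below 0 in SA:ANH-vehicle against NS, from -0.12 to -0.03, and none passed. Aqp4, the water channel of the endfeet, was at 102, 103 and 116 CPM in NS, 100, 101 and 98.0 in SA:ANH-vehicle, and 102, 98.1 and 89.5 in SA:ANH-KDM5Ci. SA:ANH-vehicle lay below NS in every library (-0.10, adjusted p = 0.730), and SA:ANH-KDM5Ci overlapped with both. Ttyh1, a tweety family membrane protein, was at 552, 540 and 554 CPM in NS, 494, 519 and 505 in SA:ANH-vehicle, and 519, 512 and 524 in SA:ANH-KDM5Ci. NS was above both stressed groups in every library, by a log2 difference of -0.12 (adjusted p = 0.446) and -0.08 (adjusted p = 0.311).

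The other endfoot genes overlapped between NS and SA:ANH-vehicle. Mlc1, the membrane protein whose loss causes a leukoencephalopathy with cysts, was at 135 ± 6.17, 128 ± 3.28 and 136 ± 8.61 CPM in NS, SA:ANH-vehicle and SA:ANH-KDM5Ci. Hepacam (GlialCAM), its binding partner, was at 69.4 ± 3.999, 66.0 ± 4.27 and 69.4 ± 5.67 CPM. Both genes were lowest on average in SA:ANH-vehicle, with adjusted p of 0.757 and 0.847 against NS.

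Atp1b2, a sodium pump subunit, was at 429 ± 9.02, 419 ± 40.4 and 408 ± 15.9 CPM in the same order, and Slc4a4, the sodium bicarbonate cotransporter, at 185 ± 2.23, 177 ± 12.6 and 187 ± 14.6 CPM. Slc14a1, a urea transporter, was the lowest of these 7 in CPM at 8.19 ± 1.58, 7.92 ± 0.348 and 7.12 ± 0.402 CPM. Each SA:ANH-KDM5Ci library was below each SA:ANH-vehicle library for Slc14a1, at a log2 difference of -0.15 with an interval from -0.45 to 0.15.

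Ppp1r3c (protein targeting to glycogen; NCBI gene 53412, chromosome 19, 36731731 to 36736604), which brings the phosphatase to glycogen and favours glycogen synthesis, was the 1 member called with the inhibitor. It was at 34.3, 32.8 and 34.2 CPM in NS, 38.5, 34.2 and 35.9 in SA:ANH-vehicle, and 31.3, 29.1 and 27.7 in SA:ANH-KDM5Ci. Every SA:ANH-KDM5Ci library was below every other library, and NS and SA:ANH-vehicle overlapped. Ppp1r3c fell by 0.30 on the log2 scale against SA:ANH-vehicle (SE 0.06, 95% interval -0.46 to -0.15, 1.23-fold, adjusted p = 0.0217). Against NS the difference was -0.20 (adjusted p = 0.1001).

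The Ppp1r3c call was not kept in every fit that left out 1 library. It was lost on leaving out SA:ANH-vehicle replicate 1 (-0.25, adjusted p = 0.0937), SA:ANH-vehicle replicate 3 (-0.31, 0.0557), SA:ANH-KDM5Ci replicate 2 (-0.30, 0.0730) or SA:ANH-KDM5Ci replicate 3 (-0.26, 0.0933). The difference with the striatal score as a covariate was -0.37 (adjusted p = 0.0594) and with the meningeal score -0.24 (adjusted p = 0.523). The sign was negative in all 20 alternatives, and 14 kept the call.

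The other metabolic enzymes did not pass. Aldh1l1, a folate enzyme used as a marker of all astrocytes, was at 60.1, 57.7 and 54.0 CPM in NS, 58.7, 56.5 and 53.4 in SA:ANH-vehicle, and 54.5, 55.2 and 58.9 in SA:ANH-KDM5Ci. The groups overlapped, and the difference with the inhibitor was 0.00 (95% interval -0.14 to 0.14). Aldoc (aldolase C), a glycolytic enzyme, was at 551 ± 22.2, 512 ± 6.96 and 531 ± 36.0 CPM in NS, SA:ANH-vehicle and SA:ANH-KDM5Ci. Every SA:ANH-vehicle library lay below every NS library for Aldoc (-0.11, adjusted p = 0.647).

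Cbs (cystathionine beta-synthase), which makes cystathionine from homocysteine, was at 25.7, 24.2 and 23.5 CPM in NS, 22.6, 19.8 and 22.4 in SA:ANH-vehicle, and 23.5, 23.1 and 24.5 in SA:ANH-KDM5Ci. SA:ANH-vehicle was the lowest group in every library, with a log2 difference of -0.18 from NS (adjusted p = 0.505) and of 0.13 in SA:ANH-KDM5Ci against it (adjusted p = 0.421). Ndrg2, a stress-responsive protein of the NDRG family, was at 455 ± 27.0, 460 ± 15.5 and 467 ± 32.2 CPM, with overlap between all groups.

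Several secreted proteins were among the most abundant members, and none passed. Apoe, the main lipoprotein of the brain, was at 1110, 992 and 1051 CPM in NS, 1054, 1063 and 1045 in SA:ANH-vehicle, and 1100, 1022 and 1067 in SA:ANH-KDM5Ci. The groups overlapped, and the log2 fold change with the inhibitor was 0.01 (95% interval -0.11 to 0.13). Clu (clusterin or apolipoprotein J) was at 599 ± 27.1, 635 ± 5.68 and 647 ± 23.97 CPM in NS, SA:ANH-vehicle and SA:ANH-KDM5Ci, a difference of 0.11 from NS in SA:ANH-KDM5Ci (adjusted p = 0.223). Sparcl1 (hevin), which promotes synapse formation, was at 1648 ± 33.4, 1703 ± 55.0 and 1705 ± 73.6 CPM. Cst3 (cystatin C), a protease inhibitor that microglia also make, was at 808 ± 49.4, 780 ± 54.6 and 845 ± 42.9 CPM.

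Agt (angiotensinogen) was at 3.42, 3.34 and 3.14 CPM in NS, 2.98, 2.66 and 2.41 in SA:ANH-vehicle, and 3.18, 2.97 and 3.01 in SA:ANH-KDM5Ci. SA:ANH-vehicle was below NS in every library and overlapped with SA:ANH-KDM5Ci, but the log2 difference of -0.30 did not pass (SE 0.13, adjusted p = 0.569). Pla2g7, a secreted phospholipase that hydrolyses platelet-activating factor, was at 113 ± 4.15, 116 ± 0.466 and 120 ± 5.84 CPM. All 6 secreted members were above 0 in SA:ANH-KDM5Ci against SA:ANH-vehicle, from 0.00 to 0.18, and none passed.

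Among the receptors and surface proteins, Fgfr3, a receptor for fibroblast growth factors, came closest to a call. It was at 101, 95.7 and 92.7 CPM in NS, 99.0, 97.5 and 94.8 in SA:ANH-vehicle, and 110, 107 and 111 in SA:ANH-KDM5Ci. Every SA:ANH-KDM5Ci library was above every other library. The log2 difference was 0.17 (SE 0.05, 95% interval 0.05 to 0.29, adjusted p = 0.0925) against SA:ANH-vehicle and 0.18 (95% interval 0.06 to 0.30, adjusted p = 0.0560) against NS. DESeq2 called both, at an adjusted p of 0.0264 and 0.0150, and the second also passed without NS replicate 1 (0.22, adjusted p = 0.0275).

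Gpc5 (glypican 5), a heparan sulfate proteoglycan, was at 32.9, 33.3 and 32.0 CPM in NS, 33.4, 33.3 and 32.8 in SA:ANH-vehicle, and 36.4, 34.3 and 35.7 in SA:ANH-KDM5Ci. It too was above all other libraries in SA:ANH-KDM5Ci, at 0.10 (adjusted p = 0.436) and 0.11 (adjusted p = 0.250). Gpr37l1, a receptor of astrocytes reported to bind prosaposin, was at 156 ± 11.2, 152 ± 6.17 and 147 ± 3.01 CPM, and its groups overlapped.

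Per kilobase of exon, the members spanned a wide range of levels in NS. Cst3 was highest, at 940 ± 57.4 CPM per kb, ahead of Sparcl1 (597 ± 12.1) and Apoe (572 ± 32.1), which overlapped within their spread. Glul (352 ± 9.77) and Clu (331 ± 14.99) came next and then Slc1a2 (274 ± 25.4). On this scale Mt2 (81.8 ± 10.2) and Mt1 (74.3 ± 4.31) did not differ beyond their spread, and Gfap stood at 22.3 ± 2.10. The Mt1 and Mt2 levels depend on the exon lengths used, 1246 bases for Mt1 and 588 for Mt2. In CPM, Mt1 was above Mt2 in every library. Ppp1r3c was at 12.4 ± 0.308 CPM per kb, and the lowest were Slc14a1 (2.05 ± 0.396) and Agt (1.75 ± 0.0752), which also overlapped within their spread.

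Among astrocyte genes outside the 34, a few were called with the inhibitor and most were not. In a further list of 51 astrocyte genes, 2 rose and 1 fell in SA:ANH-KDM5Ci against SA:ANH-vehicle, 0 passed in SA:ANH-vehicle against NS, and the median was 0.02 between the stressed groups. Over all genes, 0.891% rose and 1.62% fell with the inhibitor. The list of 51 was chosen with earlier results of these data known. Sox9, a transcription factor that specifies and maintains astrocytes, fell from 33.6 ± 0.287 CPM in SA:ANH-vehicle to 16.4 ± 1.14 in SA:ANH-KDM5Ci (log2 fold change -1.03, adjusted p = 1.2e-06), with 35.9 ± 1.12 in NS. The ranges did not overlap, at 33.2 to 33.8 CPM in SA:ANH-vehicle and 15.1 to 17.1 in SA:ANH-KDM5Ci. Dio2, the deiodinase by which astrocytes make active thyroid hormone, rose from 81.8 ± 1.41 to 113 ± 2.85 CPM (0.46, adjusted p = 0.000278), with 83.6 ± 4.91 in NS. Both calls held in all 20 alternatives.

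Htra1, a secreted serine protease, rose from 114 ± 2.77 to 143 ± 8.80 CPM (0.32, adjusted p = 0.0136). It no longer passed without SA:ANH-vehicle replicate 2 (0.0784 as the adjusted p), SA:ANH-KDM5Ci replicate 1 (0.0570) or SA:ANH-KDM5Ci replicate 3 (0.0644), and with either covariate. In SA:ANH-KDM5Ci against NS, 3 of the 51 rose and 3 fell, where 1.86% of all genes rose and 2.11% fell. Those of lowest p were Sox9 (-1.13), Dio2 (0.43) and Tril, a Toll-like receptor accessory protein (-0.28, adjusted p = 0.0095).

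**Figure D5:**
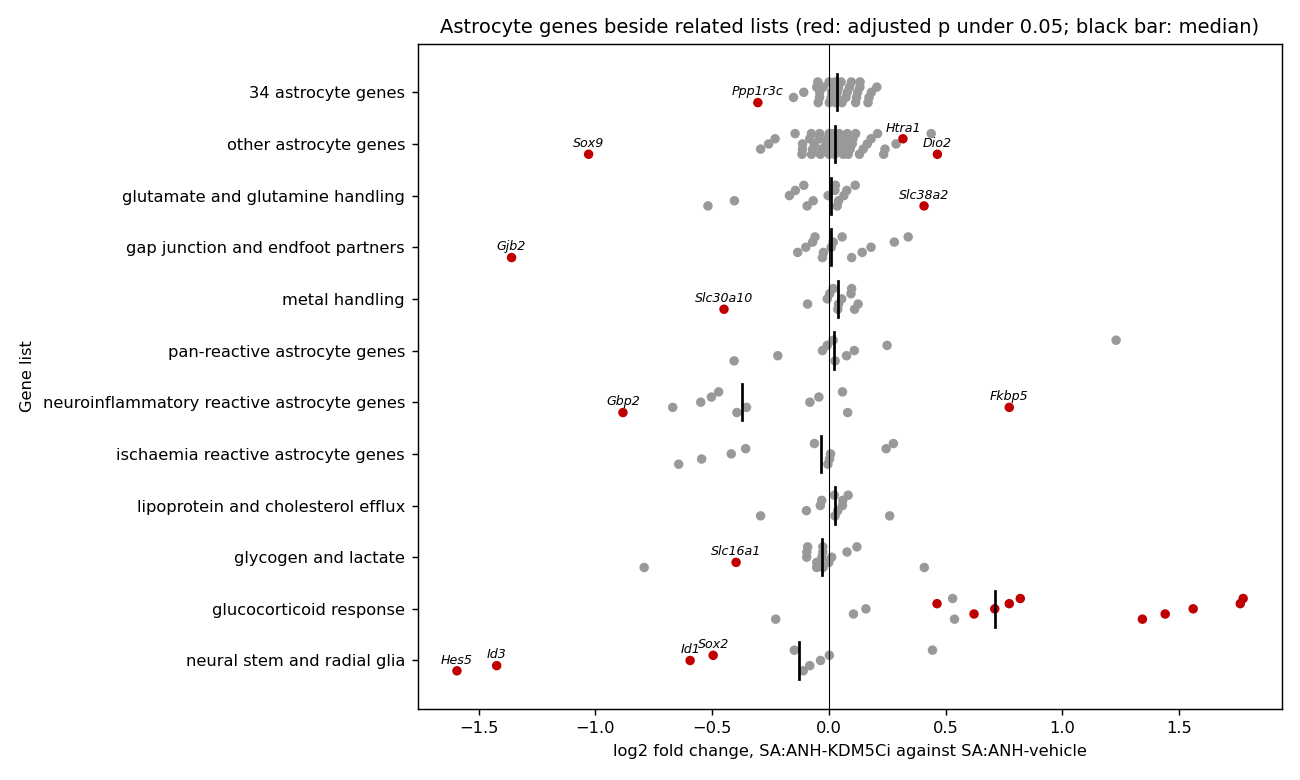
Log2 fold change (x axis) of every tested gene in the astrocyte list and in the lists of related genes, 1 row per list, for SA:ANH-KDM5Ci against SA:ANH-vehicle. Red points passed at an adjusted p of 0.05, and black bars are medians. The 34 members lie between -0.30 and 0.21, while Sox9 lies at -1.03 among the other astrocyte genes and the glucocorticoid list has a median of 0.71.

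The lists of partners of each role held 1 call or none each with the inhibitor, where 2.51% of all genes were called. Of 16 other genes of glutamate and glutamine handling, 1 rose and 0 fell with the inhibitor: Slc38a2 (SNAT2), a neutral amino acid transporter, rose from 166 ± 15.5 to 221 ± 13.4 CPM (0.41, adjusted p = 0.00459). The difference was 0.31 (adjusted p = 0.0779) with the striatal and 0.53 (adjusted p = 0.0548) with the meningeal score as a covariate. Of 15 gap junction and endfoot partners, 1 fell, Gjb2 (connexin 26), from 11.7 ± 3.22 to 4.54 ± 0.769 CPM (-1.36, adjusted p = 0.0286). Gjb2 is also expressed by meningeal cells, whose markers were lower in the same libraries. The part of these cells in the Gjb2 value was not tested. The Gjb2 difference was -0.50 (adjusted p = 0.391) in the fit that included the meningeal score. That score did not overlap between the stressed groups, so this fit cannot tell it from the group difference. The Gjb2 call also ended on leaving out replicate 2 of SA:ANH-vehicle (adjusted p = 0.0650) or any 1 of the 3 SA:ANH-KDM5Ci replicates (0.0850, 0.0914 and 0.121).

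Metal handling and glycogen also held 1 call each. Of 12 tested metal-handling genes, 1 fell, Slc30a10, a manganese exporter (-0.45, adjusted p = 0.0432). Leaving out 1 library ended this call except for NS replicate 1 and SA:ANH-KDM5Ci replicate 1, with adjusted p from 0.0533 to 0.133. Of 16 glycogen and lactate genes, 1 fell, Slc16a1 (MCT1), a lactate and ketone transporter that vessels and oligodendrocytes also carry, from 38.3 ± 3.32 to 29.1 ± 1.05 CPM (-0.40, adjusted p = 0.00979). The difference was -0.32 (adjusted p = 0.432) with the meningeal and -0.43 (adjusted p = 0.0721) with the striatal score as a covariate. Of 11 lipoprotein genes, 0 passed in edgeR against SA:ANH-vehicle (2 at an unadjusted p under 0.05).

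Lists of reactive astrocyte genes held up to 2 calls in a comparison. Of all genes, 0.0132% were called in SA:ANH-vehicle against NS, 2.51% in SA:ANH-KDM5Ci against SA:ANH-vehicle and 3.97% in SA:ANH-KDM5Ci against NS. Of 10 tested pan-reactive genes, 0 passed in edgeR in SA:ANH-vehicle against NS (1 at an unadjusted p under 0.05) or in SA:ANH-KDM5Ci against SA:ANH-vehicle (2 at that level), and in SA:ANH-KDM5Ci against NS Hspb1, a small heat shock protein, rose (0.59, adjusted p = 0.0198) and S1pr3, a sphingosine phosphate receptor, fell (-0.54, adjusted p = 0.0180). Both calls were lost without NS replicate 2 or 3 or SA:ANH-KDM5Ci replicate 1 or 3, with adjusted p from 0.0528 to 0.0985 for Hspb1 and from 0.0760 to 0.0797 for S1pr3. Of 12 genes of the neuroinflammatory reactive state, Fkbp5 rose (0.77, adjusted p = 0.00113) and Gbp2, an interferon-induced GTPase, fell (-0.88, adjusted p = 0.00519) with the inhibitor, and the list's median was -0.37. With the meningeal score as a covariate neither passed, while the differences were 0.75 (adjusted p = 0.174) and -0.74 (adjusted p = 0.338). Fkbp5 is also a standard glucocorticoid target. Of 15 glucocorticoid response genes, 10 rose and 0 fell with the inhibitor, where 0.891% of all genes rose. The median was 0.71, and this list was known from earlier results of these data to be high. The 10 tested genes of the ischaemia reactive state had 0 calls in edgeR in all 3 comparisons, with 2, 3 and 3 at an unadjusted p under 0.05.

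Some genes of neural stem cells and radial glia, cells related to astrocytes, also fell with the inhibitor. Of 10 such genes, 4 fell and 0 rose in SA:ANH-KDM5Ci against SA:ANH-vehicle, where 1.62% of all genes fell. The list was chosen with earlier results of these data known, so these shares are a description only. Among the 4 were Id3 (-1.42), which blocks bHLH factors, Sox2 (-0.50), a stem cell transcription factor, and Hes5 (-1.59), a Notch target. Id3 kept its call in all 20 alternatives, while Sox2 and Hes5 lost theirs with the meningeal score as a covariate, at differences that were no smaller (-0.54, adjusted p = 0.0656, and -1.78, adjusted p = 0.0916). The summed level of this list was 183 to 194 CPM in NS, 183 to 192 in SA:ANH-vehicle and 144 to 160 in SA:ANH-KDM5Ci. Endothelial markers, of which 3 of 10 fell, summed to 278 to 305 CPM in SA:ANH-vehicle and 225 to 283 in SA:ANH-KDM5Ci. Sox9, Id3 and Hes5 are not specific to astrocytes, and the part of other cells in their values was not tested. The fit with the meningeal score cannot tell that score from the group difference.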

How the data were processed

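Total RNA from frozen medial prefrontal cortex was made into libraries with a strand-specific kit, per the labels' protocols. Per the submitters' processing notes, the tools were Trimmomatic 0.32, TopHat2 2.0.13 and Bowtie2 2.2.3, and the build mm10. How reads were counted, and whether by strand, is not given in the sources used here; antisense reads may therefore be included in a gene's value. The authors deposited an expected count for each gene and library (15.7% of those above 0 were whole within 1e-06), and these were rounded to whole numbers. The table held 0 columns of other samples. NCBI gene IDs were named from a RefSeq table of GRCm38.p6, and 32891 of 36172 matched.

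Genes were filtered with filterByExpr, scaled by TMM (factors 0.987 to 1.01) and fitted in 1 edgeR 4.0.16 model of all 9 libraries (R 4.3.3; glmQLFit, robust), adjusted over 15144 genes at 0.05. The common biological coefficient of variation was 6.95%. A standard error is the log2 fold change divided by the square root of F. The median of all genes was within 0.00 of 0 in each comparison. All tests were 2-sided. Levels per kb used the union of exons in GENCODE vM21. Scores are medians of gene-centred log2 CPM with a prior count of 2. A count of 0 would allow up to 3 counts, for counting error only.

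The members and lists were chosen with earlier results of these data known. All 34 members are named; of other lists, up to 3 called genes of lowest p are. Alternatives were DESeq2 1.42.0, limma-voom 3.58.1, other scaling, filters and thresholds, only the groups compared, a replicate block, both marker scores as covariates and each of 9 libraries left out; those for single genes of other lists were chosen after seeing the data. The fit was also run on simulated counts drawn independently for each gene and library. Those held no shared differences in marker levels between libraries, so calls under such differences were not tested.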

Additional observations from a re-analysis of the deposited data

How the results depend on the processing

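Across 102 results for single members and 20 alternatives, 2018 of 2040 values kept their side of the threshold and direction, 12 lost a call (Ppp1r3c and Mt1), 10 gained one, and 0 called values reversed. In SA:ANH-vehicle against NS the members called stayed at 0 in all alternatives, whereas the count over all genes, 2, became 11 without TMM, 81 with DESeq2, 11 without the filter, 17 with only the 2 groups, 6 with the meningeal score, 15 at a threshold of 0.10, and 2 to 17 without 1 library. In SA:ANH-KDM5Ci against SA:ANH-vehicle the members called, 1, became 2 with DESeq2, 0 with either score, 0 at a threshold of 0.01, 2 at 0.10, and 0 to 1 without 1 library. The count over all genes there, 380, became 119 with the striatal score, 20 with the meningeal score, 171 at 0.01, 593 at 0.10, and 203 to 429 without 1 library. In SA:ANH-KDM5Ci against NS the members called, 1, became 5 with DESeq2, 2 without robust moderation, 0 with either score, 0 at 0.01, 4 at 0.10, and 0 to 2 without 1 library. The count over all genes, 601, became 167 and 109 with the striatal and meningeal scores, 227 at 0.01, 1017 at 0.10, and 269 to 747 without 1 library. The cause was not tested. With a replicate block the members called were 0, 1 and 2 in the 3 comparisons, the second in the last being Mt2 (0.39, adjusted p = 0.00331), and all genes called 2, 363 and 708. The labels do not say what the replicate numbers mark, and pairing was not taken as shown: the deviations of 9 same-number pairs correlated from -0.14 to 0.24, and 3 exceeded 0.1. Between the stressed groups they were 0.238, 0.0839 and 0.184 for replicates 1, 2 and 3. Every member was far above the level of 3 counts.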

Other observations

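The ratio of Mt1 to Mt3, chosen after its values were seen, was 0.549, 0.548 and 0.557 in NS, 0.787, 0.670 and 0.661 in SA:ANH-vehicle, and 0.892, 0.725 and 0.704 in SA:ANH-KDM5Ci. All stressed libraries were above all NS libraries (2-sided exact permutation test, p = 0.1 against NS for each stressed group, the smallest that 3 against 3 allows; adjusted p = 0.25 over 15 ratio tests). The stressed groups overlapped (exact permutation p = 0.5). The ratio of Mt1 to Mt2 stayed between 1.84 and 2.12 in all 9 libraries, with overlap between groups.

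Lcn2 (lipocalin 2), a secreted iron-siderophore carrier that reactive astrocytes induce and the most variable pan-reactive gene, was also chosen after its values were seen. NS libraries held between 0.0557 and 0.401 CPM, SA:ANH-vehicle libraries between 0.324 and 6.07, and SA:ANH-KDM5Ci libraries between 0.523 and 20.7, so NS lay below every SA:ANH-KDM5Ci library and overlapped with SA:ANH-vehicle. In edgeR no difference passed, with an adjusted p of 0.754 in SA:ANH-vehicle against NS, 0.285 in SA:ANH-KDM5Ci against NS and 0.778 between the stressed groups. The log2 fold changes were 4.24 (SE 2.54), 5.47 (SE 2.34) and 1.23 (SE 1.45) in that order, and those against NS rest on few counts there.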
